A study of Mus musculus with 4 samples.

Results

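Signals of 6 metabolic genes were examined in effector Th1 and Th17 cells of the mouse that had been separated by how much CD30, a member of the TNF receptor family, they carried at the surface. The genes were Akr1c18, Xdh, Ido1 and Gatm, which encode enzymes of steroid, purine, tryptophan and creatine metabolism, and Aqp9 and Ank, which encode a channel for water and glycerol and a protein of pyrophosphate export. They were chosen by their measured signals in these same arrays, because each stood high or low in a lineage or in a CD30 gate. Their own differences between arrays are therefore given as a description, with no test. The 6 genes were read by 7 probe sets, of 18193 genes and 45037 probe sets in all, and only Aqp9 had more than 1 probe set.

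Biotin-labelled RNA of 4 populations was hybridized to 1 array each, namely Th17 CD30high, Th17 CD30low, Th1 CD30high and Th1 CD30low cells. All 4 came from splenic CD4 T cells cultured for 6 days and then sorted on CD30. Th17 cultures received IL-6, IL-1β and IL-23 at 10 ng/ml each, with antibodies to IL-4 and IFN-γ at 10 µg/ml each. Th1 cultures received an IL-2 culture supernatant at 30 U/ml, IL-12 at 100 U/ml and an antibody to IL-4 at 1 µg/ml. By the methods, naive T cells of mice aged 6 to 12 weeks that carried a transgenic T cell receptor for ovalbumin (DO11.10, with BALB/c stimulator cells, or OTII, with C57BL/6 stimulator cells) were stimulated with the ovalbumin peptide and irradiated splenocytes depleted of T cells. The labels do not say which of the strains was used for the arrays. They give the starting cells as CD44low CD62Llow for both CD30low populations and CD44low CD62Lhi for both CD30high populations, whereas the methods describe naive cells that were CD62Lhigh throughout. As the labels stand, the CD30 gate and the CD62L level of the starting cells cannot be told apart.

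No group had a second array, so no value below has a replicate error and no difference has a p-value. The fold rule used below asked for a difference of 2-fold or more and for 300 signal units or more in the brighter array. Log2 ratios were formed after dim signals had been raised to a floor of 100, and folds that involve this floor are written as "at least". The only spread that could be measured was that between probe sets of 1 gene on the same arrays. Over 2462 genes with 2 probe sets of at least 300 on every array, the log2 ratios had an SD per probe set of 0.17 for Th17 CD30high over Th17 CD30low and 0.21 for Th1 CD30high over Th1 CD30low. For Th17 over Th1 cells the SD was 0.27 between the CD30high arrays and 0.26 between the CD30low arrays. In such bulk RNA, fewer cells of a type and less RNA per cell cannot be told apart.

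The 4 arrays were alike in scale, with 7394 to 7580 genes at 300 or more, and all 7 T cell markers reached 100 on each. Tnfrsf8, which encodes CD30, had a signal of 132 in Th17 CD30high cells and 34.9 in Th17 CD30low cells, and 51.1 in Th1 CD30high cells and 13.3 in Th1 CD30low cells. It was thus higher in both CD30high populations but dim, and below 100 on 3 arrays. Il17a, the defining Th17 cytokine, was at 14443 and 1398 in Th17 CD30high and CD30low cells, against 49.4 and 37.7 in Th1 CD30high and CD30low cells. Ifng, the defining Th1 cytokine, was at 76.0 and 106 in Th17 CD30high and CD30low cells, against 3423 and 2506 in Th1 CD30high and CD30low cells. Transcripts of the Y chromosome also separated the lineages, since Eif2s3y was at 9.39 and 1.41 in Th17 CD30high and CD30low cells, against 1640 and 1784 in Th1 CD30high and CD30low cells. Xist, transcribed from the inactive X chromosome of females, was at 14620 or more on all 4 arrays. The material of the Th17 and Th1 cultures thus differed in sex-linked transcripts, and that difference cannot be told apart from the lineage in any ratio of Th17 over Th1 cells.

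The 6 genes stand at different points of metabolism. Akr1c18 inactivates progesterone, Xdh carries out the last oxidations of purines to uric acid, Ido1 opens the breakdown of tryptophan to kynurenines, and Gatm makes the precursor of creatine from arginine and glycine. Aqp9 lets glycerol, urea and other small solutes cross the membrane, and Ank takes part in moving pyrophosphate and its sources out of the cell. Ido1 is best known in dendritic cells and macrophages, where loss of tryptophan restrains T cells, and Xdh and Gatm are best known in liver, intestine and kidney.

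**Figure D1:**
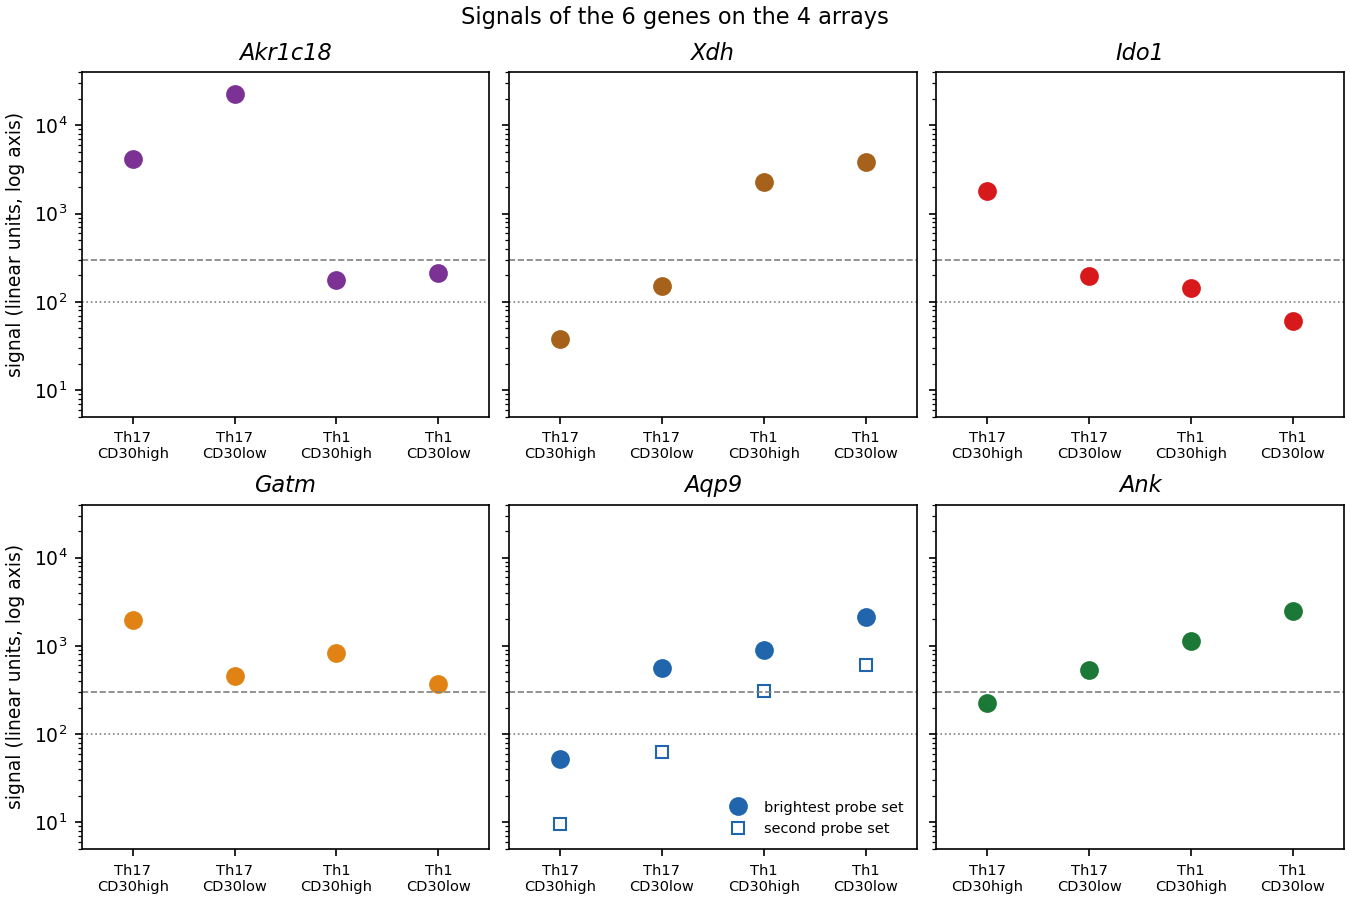
Signal of each of the 6 genes on a log axis in the 4 populations, with 1 point for each array; the dashed line is the signal limit of 300, the dotted line the floor of 100, and open squares the second probe set of Aqp9. Akr1c18 reached 22633 in Th17 CD30low cells and Xdh 3861 in Th1 CD30low cells, while Ido1 passed 300 in Th17 CD30high cells only.

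Akr1c18, the 20-alpha-hydroxysteroid dehydrogenase that turns progesterone into a weak steroid, had the largest ratio between lineages of the 6 genes. Its signal was 4144 in Th17 CD30high cells and 22633 in Th17 CD30low cells, against 176 in Th1 CD30high cells and 215 in Th1 CD30low cells. Both Th17 arrays lay far above both Th1 arrays, and within Th17 cells the CD30high array was the lower. Th17 over Th1 cells gave a log2 ratio of 6.72 (105-fold) between the CD30low arrays, the highest of 7857 genes that reached 300 in either array, a place it held under all 10 alternative settings of the processing. Between the CD30high arrays the log2 ratio was 4.56 (23.6-fold), and 7 of 7979 genes stood higher. Th17 CD30high over Th17 CD30low cells gave a log2 ratio of -2.45 (5.46-fold lower), the 36th lowest of 7786 genes. In Th1 cells the signal stayed under 300 on both arrays and the log2 ratio of CD30high over CD30low cells was -0.29. The CD30 ratio of Th17 cells was therefore lower than that of Th1 cells by 2.16 on the log2 scale, a difference that could not be tested with 1 array a group.

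The promoter of Akr1c18 is shown because this gene had the largest Th17 over Th1 ratio of the 6. The sequence runs from 250 bases before to 50 bases after the transcription start of the RefSeq annotation (GRCm38.p6, chr13:4150597-4150896, minus strand), written in the direction of transcription, and capitals mark AGGTCA, the core that ROR and other nuclear receptors recognise.
Akr1c18: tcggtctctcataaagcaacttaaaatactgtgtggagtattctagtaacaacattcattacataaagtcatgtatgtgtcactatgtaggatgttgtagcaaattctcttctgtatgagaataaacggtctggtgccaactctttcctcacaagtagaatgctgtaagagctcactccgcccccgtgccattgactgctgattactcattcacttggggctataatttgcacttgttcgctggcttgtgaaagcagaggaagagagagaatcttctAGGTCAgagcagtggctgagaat
The AGGTCA core began 28 bases into the transcript on the coding strand. Of 32851 RefSeq promoters of this length, 16.3% held AGGTCA on either strand, so a match in 1 promoter is frequent. The window was 42.3% G and C with 5 CpG pairs, against medians of 52.7% and 7 over all promoters.

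Other genes of steroid metabolism were read from a list of 33 entries, of which 29 were named on the array and 17 reached 100 on either Th17 array. Of these 17, 15 reached 300. Past the fold rule, 5 were lower in Th17 CD30high than in Th17 CD30low cells, Akr1c18 among them, where 3.66% of all genes were, and 1 was higher, where 3.94% of all genes were. The 16 genes other than Akr1c18 had a median log2 ratio of -0.26, beside 0.017 over all genes measured. Cyp11a1, the side-chain cleavage enzyme that makes pregnenolone from cholesterol, was at 202 in Th17 CD30high cells and 860 in Th17 CD30low cells, against 67.2 in Th1 CD30high cells and 49.0 in Th1 CD30low cells. It thus had the same order of arrays as Akr1c18 within Th17 cells, 4.26-fold lower in the CD30high array, and was at least 8.60-fold higher in Th17 CD30low than in Th1 CD30low cells. A dimmer probe set of Cyp11a1 gave 142 and 294 in Th17 CD30high and CD30low cells, against 93.3 and 91.9 in Th1 CD30high and CD30low cells, and stayed under 300.

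Akr1c13 and Akr1c12, aldo-keto reductases of the same gene family, stood at 1797 and 343 in Th17 CD30high cells and at 8500 and 1786 in Th17 CD30low cells. In Th1 cells Akr1c13 was at 1561 in CD30high and 2661 in CD30low cells, and Akr1c12 was at 475 in CD30high and 795 in CD30low cells. Both were lower in Th17 CD30high than in Th17 CD30low cells, as Akr1c18 was, by 4.73-fold and 5.20-fold, but neither was confined to Th17 cells. Their ratios of Th17 over Th1 cells were 3.19-fold and 2.25-fold higher between the CD30low arrays, far under that of Akr1c18. Between the CD30high arrays Akr1c13 was 1.15-fold higher and Akr1c12 1.38-fold lower in Th17 cells, both under the 2-fold limit. The Akr1c18 probe set was at 176 and 215 in Th1 CD30high and CD30low cells, where Akr1c13 was at 1561 and 2661. Members of this family are related in sequence, and how far their probe sets bind each other's transcripts was not tested. They are also neighbours on chromosome 13, where Akr1c13 is the next protein-coding gene to Akr1c18, while Akr1c14 and Akr1c19, further genes of the cluster, were below 100 on all 4 arrays.

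Hsd11b1, which regenerates active glucocorticoid, ran the other way between lineages. Its signal was 214 in Th17 CD30high cells and 673 in Th17 CD30low cells, against 1416 in Th1 CD30high cells and 2180 in Th1 CD30low cells. It was 6.61-fold lower in Th17 CD30high than in Th1 CD30high cells and 3.24-fold lower in Th17 CD30low than in Th1 CD30low cells, and 3.14-fold lower in Th17 CD30high than in Th17 CD30low cells. Hsd17b10, a mitochondrial dehydrogenase of steroids and fatty acids, was the only gene of the list to pass the fold rule as higher in Th17 CD30high than in Th17 CD30low cells, with 7437 against 2434 (3.06-fold), and it was 2742 in Th1 CD30high and 2300 in Th1 CD30low cells. Hsd17b11, a dehydrogenase of lipid droplets, fell just short of the rule, with 1435 in Th17 CD30high and 719.7 in Th17 CD30low cells, against 2263 in Th1 CD30high and 1938 in Th1 CD30low cells. Hsd17b4, a peroxisomal enzyme, was 2.21-fold higher in Th17 CD30high than in Th1 CD30high cells, but under the 2-fold limit by another probe set (1.81-fold). Star, which delivers cholesterol to Cyp11a1, stayed between 88.8 and 123 on the 4 arrays. Nr3c1, the glucocorticoid receptor, was at 579 in Th17 CD30high and 1055 in Th17 CD30low cells, against 1038 in Th1 CD30high and 1354 in Th1 CD30low cells. Between Th17 and Th1 cells, 18 genes of the list were measured on the CD30high arrays, and 14 of these reached 300. Past the fold rule, 4 were higher in Th17 cells, Akr1c18 among them, and 1 was lower, where 4.98% and 6.86% of all genes were. Of 18 measured on the CD30low arrays, 15 reached 300. There 5 were higher in Th17 cells, Akr1c18 among them, and 2 were lower, where 3.53% and 5.83% of all genes were. Between Th1 CD30high and Th1 CD30low cells 16 genes were measured and 13 reached 300. None of them passed, where 1.28% of all genes did, and with so few genes this count is near that share.

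Some markers of neutrophils were, like Akr1c18, brightest in Th17 CD30low cells and lower in Th17 CD30high cells. Within Th1 cells, where these markers were below 100 on both arrays, they did not share its order. Summed over the 9 listed markers, the signal was 2597 in Th17 CD30high cells and 9061 in Th17 CD30low cells, against 1189 in Th1 CD30high cells and 880 in Th1 CD30low cells, and 4, 5, 1 and 1 of the markers reached 100 in the same order. Of these, S100a8 was at 1210 in Th17 CD30high and 5192 in Th17 CD30low cells, against 7.51 in Th1 CD30high and 2.11 in Th1 CD30low cells, and Ngp was at 295 in Th17 CD30high and 1072 in Th17 CD30low cells, against 31.9 in Th1 CD30high and 2.10 in Th1 CD30low cells. Cxcr2, a chemokine receptor, ran the other way, with 235 in Th17 CD30high and 93.5 in Th17 CD30low cells, against 905 in Th1 CD30high and 763 in Th1 CD30low cells, and made up most of the Th1 sums. Ltf and Camp, of the same list, were at 353 and 208 in Th17 CD30low cells and below 100 on every other array. Elane, Mpo and Csf3r were below 100 on all 4 arrays. The part of such cells in the Akr1c18 signal was not tested.

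**Figure D2:**
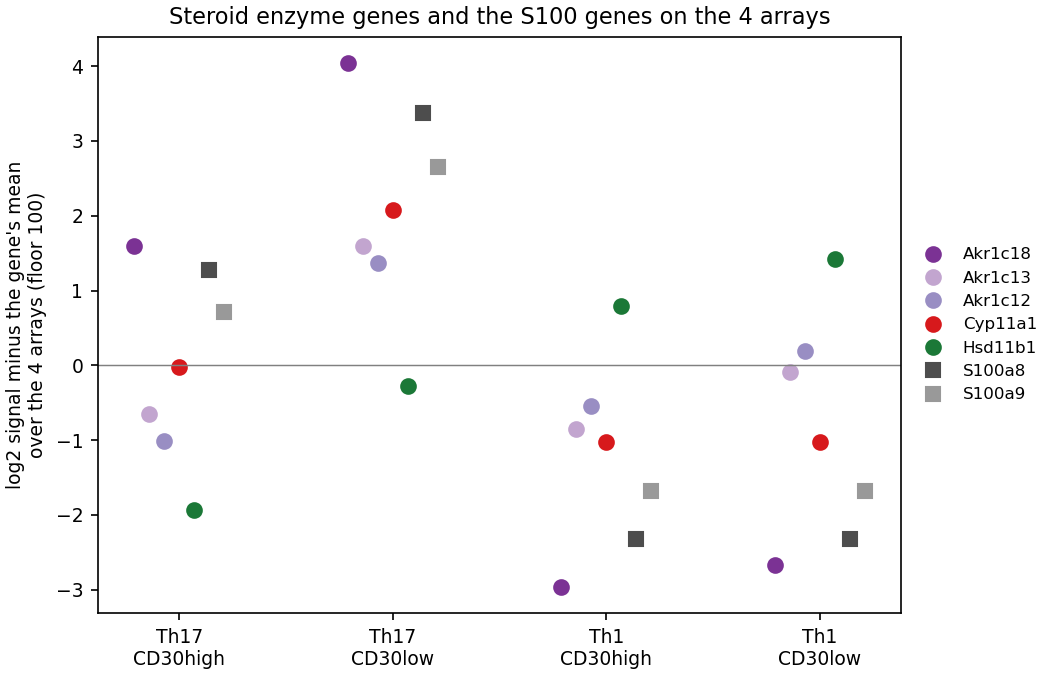
Log2 signal of 5 steroid genes (circles) and of S100a8 and S100a9 (squares) in the 4 populations, each minus the gene's own mean over the arrays after a floor of 100, with 1 point for each array. The 5 steroid genes shown are those of the list that passed the fold rule as lower in Th17 CD30high than in Th17 CD30low cells. Hsd17b10, which passed as higher, is not shown. S100a8 and S100a9 were lower there too. Of the 7 genes, Hsd11b1 alone stood higher on both Th1 arrays than on both Th17 arrays.

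Xdh, the xanthine dehydrogenase that turns hypoxanthine and xanthine into uric acid, was the reverse of Akr1c18 between lineages. Its signal was 38.1 in Th17 CD30high cells and 152 in Th17 CD30low cells, against 2265 in Th1 CD30high cells and 3861 in Th1 CD30low cells. Both Th1 arrays lay above both Th17 arrays. Th17 over Th1 cells gave a log2 ratio of -4.67 (25.4-fold lower) between the CD30low arrays, with 1 of 7857 genes lower, and -4.50 (at least 22.7-fold lower) between the CD30high arrays, where its signal lay under the floor. The CD30 gates differed less. The log2 ratio of CD30high over CD30low cells was -0.77 in Th1 cells (1.70-fold lower), under the 2-fold limit, and in Th17 cells the gene was at least 1.52-fold lower at signals under 300. The difference between the CD30 ratios of Th17 and Th1 cells has no settled sign, since the Th17 ratio was set by the floor: it was 0.17 with a floor of 100 and -0.83 with a floor of 50.

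Of 34 listed purine genes on the array, 28 were measured in Th17 cells, and 24 of these reached 300. Of the 27 other than Xdh, 1 passed the fold rule as higher and none as lower between Th17 CD30high and Th17 CD30low cells, where 3.94% and 3.66% of all genes did. That gene was Mocos, whose enzyme adds the sulfur that the molybdenum cofactor of xanthine dehydrogenase needs. Mocos was at 1060 in Th17 CD30high cells and 268 in Th17 CD30low cells (3.96-fold higher), against 339 in Th1 CD30high cells and 263 in Th1 CD30low cells, so it was brightest in the population where Xdh was dimmest, and 3.12-fold higher there than in Th1 CD30high cells. In Th1 cells 29 genes other than Xdh were measured, and 26 genes of the list, Xdh among them, reached 300. None passed the fold rule between CD30high and CD30low cells, where 1.28% of all genes did. With so few genes this count is near that share.

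Between lineages, Entpd1 (CD39), the ectoenzyme that breaks down extracellular ATP, followed the Th1 pattern of Xdh. It was at 154 in Th17 CD30high and 156 in Th17 CD30low cells, against 1025 in Th1 CD30high and 1039 in Th1 CD30low cells, which is 6.63-fold and 6.64-fold lower in Th17 cells. Samhd1, a nucleotide triphosphohydrolase, was 2.48-fold lower in Th17 CD30high than in Th1 CD30high cells, but under the 2-fold limit under median scaling (log2 ratio -0.89). The salvage enzymes differed less. Hprt, which returns hypoxanthine to the nucleotide pool and so uses the substrate of Xdh, ranged over the 4 arrays between 10571 and 13480, and Pnp, which supplies hypoxanthine, between 4532 and 5382. Ada, which turns adenosine into inosine, was at 309 in Th17 CD30high and 614 in Th17 CD30low cells, against 521 in Th1 CD30high and 940.5 in Th1 CD30low cells, lower in each CD30high array by less than 2-fold. Nt5e (CD73), which makes adenosine outside the cell, was below 300 on every array. Over the purine genes other than Xdh the median log2 ratio of Th17 over Th1 cells was 0.11 between the CD30high arrays and 0.04 between the CD30low arrays, beside -0.012 and -0.021 over all genes measured.

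Genes of natural killer and cytotoxic CD8 T cells were also brighter in Th1 cells. The summed signal of the 5 markers was 743 in Th17 CD30high and 1013 in Th17 CD30low cells, against 7062 in Th1 CD30high and 9345 in Th1 CD30low cells, most of it in Th1 cells from Klrd1, and 3 of 5 reached 100 on every array. Klrk1 was at 145 and 156 in Th17 CD30high and CD30low cells, against 2108 and 2359 in Th1 CD30high and CD30low cells. Cd8b1 was at 350 and 390 in Th17 CD30high and CD30low cells, against 541 and 703 in Th1 CD30high and CD30low cells. Cd8a and Ncr1 were below 100 on all 4 arrays. The part of such cells in the Xdh signal was not tested.

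Ido1, the indoleamine dioxygenase that makes the first and limiting step from tryptophan to kynurenine, was bright in 1 population. Its signal was 1821 in Th17 CD30high cells and 197 in Th17 CD30low cells, against 145.5 in Th1 CD30high cells and 60.6 in Th1 CD30low cells. The Th17 CD30high array stood apart from the other 3, none of which reached 300. Th17 CD30high over Th17 CD30low cells gave a log2 ratio of 3.21 (9.22-fold higher), the 6th highest of 7786 genes, and Th17 CD30high over Th1 CD30high cells gave 3.65 (12.5-fold higher), the 15th highest of 7979. The ratio of Th1 CD30high over Th1 CD30low cells was at least 1.45-fold and that of Th17 CD30low over Th1 CD30low cells at least 1.97-fold, both at signals under 300. The CD30 ratio of Th17 cells exceeded that of Th1 cells by 2.66 on the log2 scale with the floor of 100, which is an upper bound because Th1 CD30low cells lay under the floor, and by 1.94 with a floor of 50. The difference was not tested.

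Of 22 listed genes of tryptophan metabolism on the array, 13 were measured in Th17 cells, but only 5, Ido1 among them, reached 300 and so could pass the fold rule. None of the others passed between Th17 CD30high and Th17 CD30low cells, where 7.6% of all genes did, and the 12 measured genes other than Ido1 had a median log2 ratio of -0.10. Ido2 and Tdo2, the other enzymes of the first step, stayed below 100 on all 4 arrays, as did Kmo and Kynu, which carry kynurenine further. Wars, the tryptophanyl-tRNA synthetase that, like Ido1, is known as a target of interferon, was at 476 in Th17 CD30high and 553 in Th17 CD30low cells, against 594 in Th1 CD30high and 521 in Th1 CD30low cells. Haao, an enzyme on the way to quinolinate, was the only one to pass the rule between lineages beside Ido1. It was at 13.7 in Th17 CD30high and 14.7 in Th17 CD30low cells, against 304 in Th1 CD30high and 315 in Th1 CD30low cells, at least 3.04-fold and 3.15-fold lower in Th17 cells. These Th1 signals lay just above the limit of 300, and between the CD30high arrays Haao no longer passed under median scaling (log2 ratio -1.34) or quantile normalization (-1.54). Ahr, a receptor for kynurenine, was at 38.7 in Th17 CD30high cells and 139 in Th17 CD30low cells, against 121 in Th1 CD30high cells and 114 in Th1 CD30low cells.

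Since Ido1 is best known in myeloid cells, the macrophage and dendritic cell markers were set beside it. Of 10 markers on the array, 3 reached 100 in Th17 CD30high cells, against 1 on each of the other 3 arrays, and none reached 300 on any array. Their summed signal was 832 in Th17 CD30high and 641 in Th17 CD30low cells, against 674 in Th1 CD30high and 558 in Th1 CD30low cells. In Th17 CD30high cells Adgre1 was at 158, Csf1r at 130.1 and Cd14 at 104. Lyz2 had 88.5 in Th17 CD30high and 231 in Th17 CD30low cells, against 76.4 in Th1 CD30high and 62.7 in Th1 CD30low cells, and Cd68 had 61.4 in Th17 CD30high and 69.0 in Th17 CD30low cells, against 118 in Th1 CD30high and 120.4 in Th1 CD30low cells. The markers thus did not share 1 order of arrays. Itgax, Flt3 and Zbtb46 were below 100 on all 4 arrays. The 8 fibroblast markers summed to 7776 in Th17 CD30high and 1104 in Th17 CD30low cells, against 529 in Th1 CD30high and 631 in Th1 CD30low cells, in Th17 cells mostly from Lum (6697 in Th17 CD30high cells) and Dcn (967 there). Sparc ran the other way, below 100 on both Th17 arrays, against 241 in Th1 CD30high and 346 in Th1 CD30low cells. Col1a1, Col1a2, Col3a1, Pdgfra and Pdgfrb were below 100 on all 4 arrays. Of the 6 mast cell and basophil markers, Mcpt8 was at 470 in Th17 CD30high cells and below 100 on every other array. Cpa3 ranged over the 4 arrays between 227 and 301. Gata2 was at 183 and 121 in Th17 CD30high and CD30low cells, and Fcer1a at 29.4 and 151. Both were below 100 in Th1 cells, and Ms4a2 and Mcpt4 on all 4 arrays. The part of any of these cell types in the Ido1 signal was not tested.

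Gatm, the mitochondrial enzyme that joins arginine and glycine to the creatine precursor guanidinoacetate, was higher in CD30high cells of both lineages. Its signal was 1983 in Th17 CD30high cells and 450.4 in Th17 CD30low cells, and 829 in Th1 CD30high cells and 369 in Th1 CD30low cells. Both CD30high arrays lay above both CD30low arrays. CD30high over CD30low cells gave a log2 ratio of 2.14 in Th17 cells (4.40-fold), the 53rd highest of 7786 genes, and of 1.17 in Th1 cells (2.25-fold), the 33rd highest of 7813. The Th1 difference was near the 2-fold limit and fell under it when arrays were scaled to their medians (log2 ratio 0.93). Between lineages the gene was 2.39-fold higher in Th17 CD30high than in Th1 CD30high cells, while the CD30low arrays differed 1.22-fold. The CD30 ratio was larger in Th17 than in Th1 cells by 0.97 on the log2 scale, which was not tested.

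The promoter of Gatm is shown because this gene alone of the 6 was higher past the fold rule in CD30high cells of both lineages (GRCm38.p6, chr2:122611228-122611527, minus strand). Capitals mark AGGTCA on the opposite strand, read here as TGACCT, and GCGTG, the core bound by the aryl hydrocarbon receptor, on the opposite strand, read here as CACGC.
Gatm: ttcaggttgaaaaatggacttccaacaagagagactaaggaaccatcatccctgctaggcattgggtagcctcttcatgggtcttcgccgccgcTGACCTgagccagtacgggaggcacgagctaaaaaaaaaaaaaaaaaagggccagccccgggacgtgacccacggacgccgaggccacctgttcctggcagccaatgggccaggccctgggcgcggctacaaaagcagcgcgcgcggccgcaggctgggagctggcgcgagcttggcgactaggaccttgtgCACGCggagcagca
The first match lay 156 bases before the start and the second 37 bases into the transcript, and they did not overlap. GCGTG occurred on either strand in 32.4% of all promoters. The window was 60.7% G and C with 22 CpG pairs, above the medians of all promoters.

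Of 22 listed genes of creatine and arginine metabolism on the array, 12 were measured in Th17 and 15 in Th1 cells, and 9 in each, Gatm among them, reached 300. None of the others passed the fold rule between Th17 CD30high and Th17 CD30low cells, where 7.6% of all genes did, or between Th1 CD30high and Th1 CD30low cells, where 1.28% did. With so few genes these counts are near those shares. The median log2 ratios of the others were -0.07 in Th17 and 0.17 in Th1 cells. Gamt, which turns the product of Gatm into creatine, was below 100 on all 4 arrays. Slc6a8, the creatine importer, was at 95.3 in Th17 CD30high and 121 in Th17 CD30low cells, against 109.8 in Th1 CD30high and 45.8 in Th1 CD30low cells. Ckb, the creatine kinase of brain type, was bright on every array, with 2933 in Th17 CD30high and 3885 in Th17 CD30low cells, against 4738 in Th1 CD30high and 6778 in Th1 CD30low cells. It was lower in both CD30high arrays but by less than 2-fold.

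Aqp9, the aquaglyceroporin, was lower in CD30high cells of both lineages and lower in Th17 than in Th1 cells. Its signal was 52.9 in Th17 CD30high cells and 562 in Th17 CD30low cells, against 895 in Th1 CD30high cells and 2142 in Th1 CD30low cells. CD30high over CD30low cells gave a log2 ratio of -2.49 in Th17 cells (at least 5.62-fold lower) and of -1.26 in Th1 cells (2.39-fold lower), the 18th lowest of 7813. Th17 over Th1 cells gave at least 8.95-fold lower between the CD30high arrays and 3.81-fold lower between the CD30low arrays. The second probe set was dimmer and kept the order of the 4 arrays, with 9.64 in Th17 CD30high and 63.1 in Th17 CD30low cells, against 312 in Th1 CD30high and 607 in Th1 CD30low cells. By that probe set alone the Th17 arrays gave no ratio, since both were below 100, and the Th1 log2 ratio was -0.96, just short of 2-fold.

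The promoter of the second annotated start of Aqp9 is shown because it was the only window of this gene that held a searched motif (GRCm38.p6, chr9:71162584-71162883, minus strand). Capitals mark TGANTCA, the site of AP-1, here TGAGTCA, and GCGTG.
Aqp9 start 2: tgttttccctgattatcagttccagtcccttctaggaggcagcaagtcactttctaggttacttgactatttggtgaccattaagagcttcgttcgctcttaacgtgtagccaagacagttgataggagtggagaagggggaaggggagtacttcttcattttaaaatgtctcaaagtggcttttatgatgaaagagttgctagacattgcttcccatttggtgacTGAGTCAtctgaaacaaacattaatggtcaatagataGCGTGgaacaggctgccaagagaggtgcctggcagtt
TGANTCA lay 24 bases before the start and GCGTG began 14 bases into the transcript, without overlap. Of all promoters, 7.81% held TGANTCA. The window of the first start of Aqp9 held none of the 6 motifs searched, and neither did that of Ank, which was 78% G and C with 53 CpG pairs. Beside these, TTCNNNGAA (8.3% of all promoters), the site of STAT proteins, the element of interferon regulatory factors (3.44%) and CACGTG (7.15%), the E-box, were searched on both strands and had no match in the 5 windows of the 4 genes that could be matched.

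Of 19 listed genes of glycerol and triglyceride metabolism on the array, 10 were measured in Th17 cells and 7 of these reached 300. Of the 9 other than Aqp9, 3 passed the fold rule as higher and none as lower between Th17 CD30high and Th17 CD30low cells, where 3.94% and 3.66% of all genes did, and their median log2 ratio was 0.36. Gpd1l and Gpam, of glycerol phosphate synthesis and use, were at 439.8 and 404 in Th17 CD30high cells and 555 and 557 in Th17 CD30low cells, differences under 2-fold. Gpd2, the mitochondrial glycerol-3-phosphate dehydrogenase, was at 3167 in Th17 CD30high cells and 762 in Th17 CD30low cells (4.16-fold higher), and at 1012 in Th1 CD30high cells and 462 in Th1 CD30low cells (2.19-fold higher). Dgat1, which completes triglyceride synthesis, was at 1896 in Th17 CD30high cells and 521 in Th17 CD30low cells (3.64-fold higher), against 977 in Th1 CD30high cells and 938 in Th1 CD30low cells. Mgll, which frees glycerol from monoglycerides, was at 2348 in Th17 CD30high cells and 708 in Th17 CD30low cells (3.32-fold higher), against 891 in Th1 CD30high cells and 870.4 in Th1 CD30low cells. Gpd2 alone of these also passed the rule in Th1 cells, but not under median scaling (log2 ratio 0.90) or with its probe sets averaged (0.69). By its second brightest probe set Dgat1 no longer passed in Th17 cells (log2 ratio 1.14). The other channels for glycerol were dim, with Aqp3 between 109 and 259.8 and Aqp7 at or below 30.3 over the 4 arrays.

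Ank, the multipass membrane protein whose loss causes joint calcification in mice, was lower in CD30high cells of both lineages and higher in Th1 than in Th17 cells. Its signal was 223.5 in Th17 CD30high cells and 539.5 in Th17 CD30low cells, against 1129 in Th1 CD30high cells and 2469 in Th1 CD30low cells. CD30high over CD30low cells gave a log2 ratio of -1.27 in Th17 cells (2.41-fold lower) and of -1.13 in Th1 cells (2.19-fold lower), the 187th lowest of 7786 and the 24th lowest of 7813 genes. The CD30 ratio of Th17 cells was lower than that of Th1 cells by 0.14 on the log2 scale, but higher by 0.04 under median scaling. This difference thus has no settled sign, and it was not tested. Th17 over Th1 cells was 5.05-fold lower between the CD30high arrays and 4.58-fold lower between the CD30low arrays. All 4 signals lay above the floor.

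Of 11 listed genes of phosphate and pyrophosphate handling on the array, 6 other than Ank were measured in Th17 and 7 in Th1 cells. In each lineage 5 genes, Ank among them, reached 300. None of the others passed the fold rule between the CD30 gates, where 7.6% of all genes did in Th17 and 1.28% in Th1 cells. With so few genes these counts are near those shares. Slc20a1, a phosphate importer, was at 2663 in Th17 CD30high and 3203 in Th17 CD30low cells, against 5682 in Th1 CD30high and 5409 in Th1 CD30low cells, and was 2.13-fold lower in Th17 CD30high than in Th1 CD30high cells, but under the 2-fold limit under median scaling (log2 ratio -0.67). Alpl, the phosphatase that hydrolyses pyrophosphate outside the cell, was below 100 on all 4 arrays. Ppa1, which does so in the cytosol, was at 4192 in Th17 CD30high and 3317 in Th17 CD30low cells, against 2380 in Th1 CD30high and 1880 in Th1 CD30low cells.

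**Figure D3:**
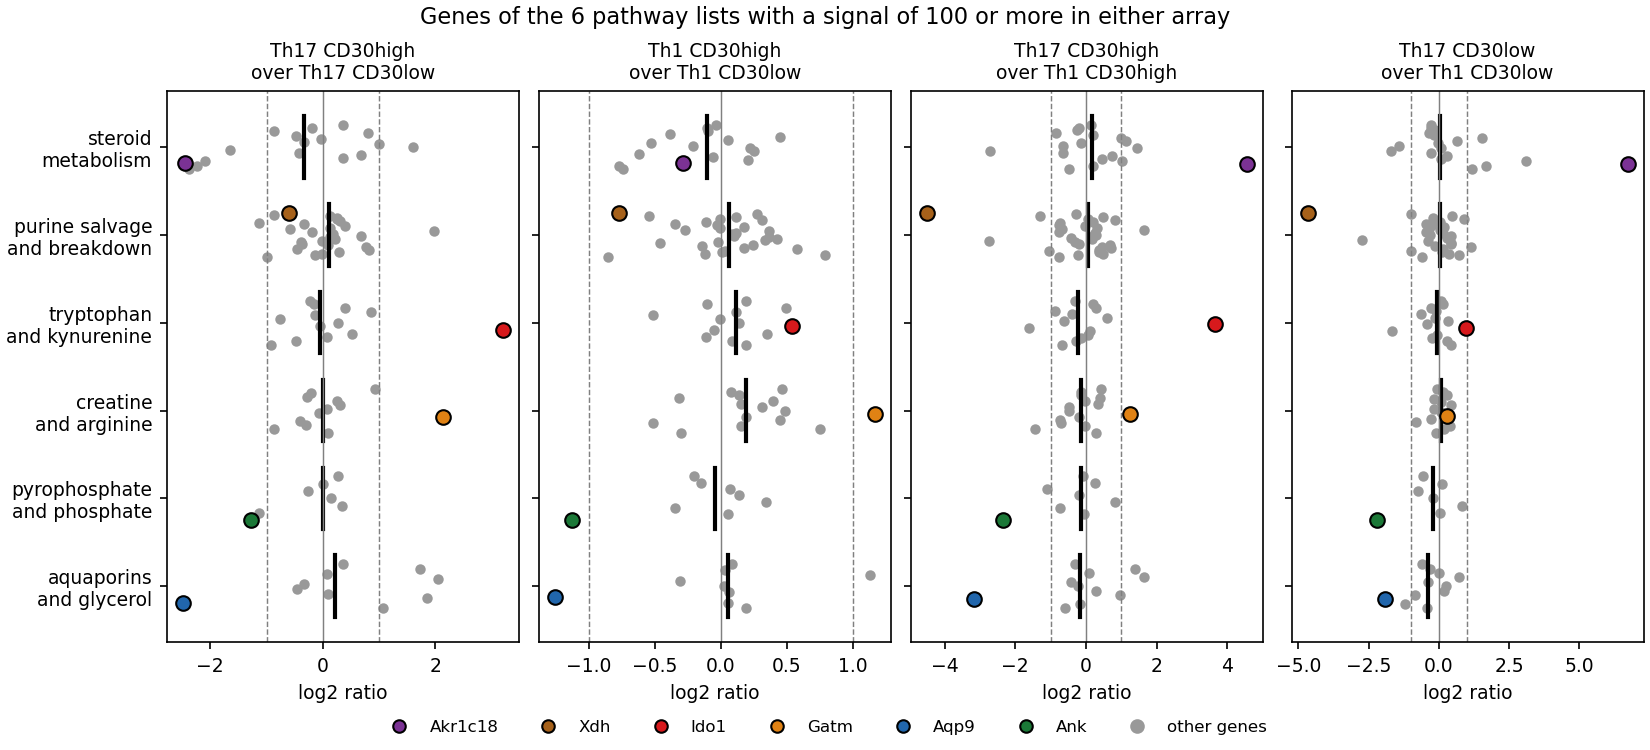
Log2 ratios of the genes of 6 pathway lists that reached 100 in either array, with 1 point for each gene, the 6 chosen genes in colour, a black bar at each list's median and dashed lines at the 2-fold limits; the 4 panels have their own axes. Ido1 at 3.21 and Gatm at 2.14 lay outside the range of the other genes of their lists in Th17 CD30high over Th17 CD30low cells.

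Counted by comparison, 5 of the 6 genes passed the fold rule between Th17 CD30high and Th17 CD30low cells, beside 7.6% of 7786 genes in all. Ido1 and Gatm were higher, where 3.94% of all genes were, and Akr1c18, Aqp9 and Ank were lower, where 3.66% of all genes were. Between Th1 CD30high and Th1 CD30low cells 3 of the 6 passed, beside 1.28% of 7813 genes. Gatm was higher (0.794% of all genes) and Aqp9 and Ank were lower (0.486%). Between Th17 CD30high and Th1 CD30high cells all 6 passed, beside 11.8% of 7979 genes. Akr1c18, Ido1 and Gatm were higher (4.98% of all genes) and Xdh, Aqp9 and Ank were lower (6.86%). Between Th17 CD30low and Th1 CD30low cells 4 of the 6 passed, beside 9.35% of 7857 genes, with Akr1c18 higher (3.53% of all genes) and Xdh, Aqp9 and Ank lower (5.83%). The genes were selected on these same ratios, so the counts describe the choice and nothing is read from their excess over all genes.

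**Figure D4:**
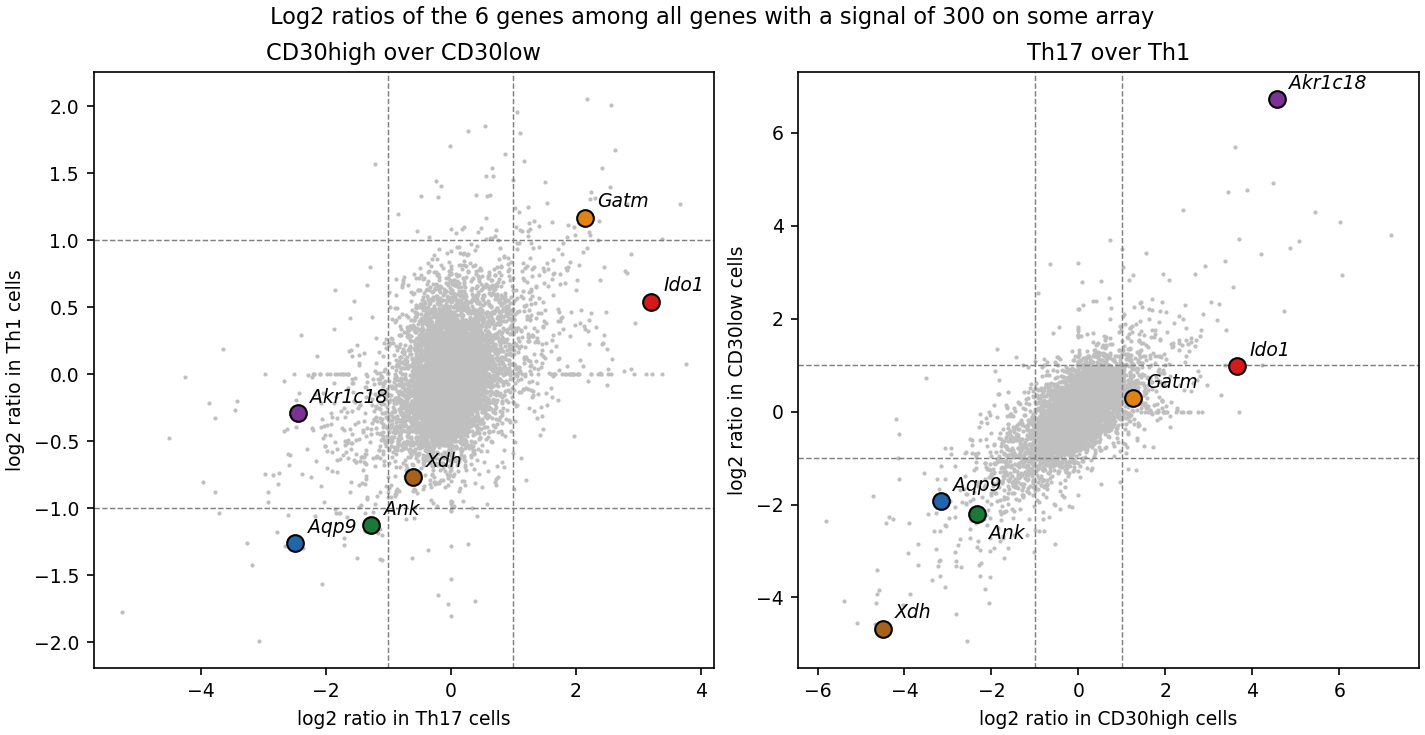
Log2 ratios of the 6 genes (named points) among all genes that reached 300 on an array (grey), with CD30high over CD30low cells on the left (Th17 cells across, Th1 cells up) and Th17 over Th1 cells on the right (CD30high cells across, CD30low cells up); dashed lines mark the 2-fold limits. Gatm passed the upper limits of both CD30 ratios, and Akr1c18 at 6.72 and Xdh at -4.67 lay near opposite ends of the ratio of Th17 CD30low over Th1 CD30low cells.

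The measured CD30 ratio had the same sign in both lineages for each of the 6 genes, although Xdh in Th17 cells and Akr1c18 and Ido1 in Th1 cells stayed under 300 on both arrays. Aqp9, Ank and Gatm passed the fold rule in both lineages, Akr1c18 and Ido1 in Th17 cells only, and Xdh in neither. Whether the ratios of Th17 and Th1 cells differ could not be tested with 1 array a group. The median log2 ratio of the 6 genes was -0.94 for Th17 CD30high over Th17 CD30low cells and -0.53 for Th1 CD30high over Th1 CD30low cells, beside 0.01 and -0.03 over all genes that reached 300.

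The genes with the most similar pattern were sought among 8221 genes by the distance between log2 signals over the 4 arrays. Signals were first raised to the floor of 100 and then centred on each gene's own mean. Distances to genes under the floor, such as S100a8 and S100a9 on both Th1 arrays, thus rest in part on the floor. With 4 arrays such likeness is a description only. Akr1c18 was nearest to S100a8 (distance 1.04), Egr1 (1.90) and S100a9 (2.31), at greater distances than the nearest genes of the other 5. Xdh was nearest to Cxcr6 (0.31), Klrd1 (0.41) and Ctla2b (0.59). Cxcr6, a chemokine receptor, was at 323 in Th17 CD30high and 650.2 in Th17 CD30low cells, against 8235 in Th1 CD30high and 15523 in Th1 CD30low cells. Ido1 was nearest to Timp1 (0.49), Procr (0.62) and Dcn (0.66), all brightest in Th17 CD30high cells. S100a8 and S100a9 are on the neutrophil list, Klrd1 on the natural killer and CD8 list and Dcn on the fibroblast list given above. Procr, the protein C receptor, was at 9902 in Th17 CD30high and 784 in Th17 CD30low cells, against 951 in Th1 CD30high and 394 in Th1 CD30low cells.

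Gatm had the closest neighbours, Muc13 (0.17), Shroom3 (0.18) and Slc4a11 (0.28). Muc13, a transmembrane mucin, was at 1546 in Th17 CD30high and 341 in Th17 CD30low cells, against 571 in Th1 CD30high and 297 in Th1 CD30low cells. Aqp9 was nearest to Iigp1 (0.51), an interferon-inducible GTPase, Cmah (0.56) and Mylip (0.65). Ank was nearest to Selenop (0.34), Acpp (0.36) and Tm6sf1 (0.42). Selenop, the selenium carrier selenoprotein P, was at 2335 in Th17 CD30high and 5441 in Th17 CD30low cells, against 12452 in Th1 CD30high and 20037 in Th1 CD30low cells. Among the 6 genes themselves Aqp9 and Ank were the most alike (0.91), followed by Ido1 and Gatm (1.77), and Akr1c18 and Xdh were the least alike (10.3).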

How the data were processed

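RNA of 4 sorted T helper populations was labelled with biotin and hybridized to 1 Affymetrix whole-genome mouse array each. Deposited intensity values were 1 linear signal for each probe set, credited in the methods to the GeneChip Operating Software while the submitters' processing notes name Affymetrix Expression Console. The version, the summary algorithm and the scaling target are not given in the sources used here. Trimmed of 2% of the probe sets at either end, mean signals lay between 496.5 and 496.8, as after scaling to 1 target, which hides any shift shared by most genes. No detection calls were in the table used here.

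Groups came from the sample titles. Of 45037 probe sets, 34945 had 1 gene symbol, 932 had several and 9160 had none; 34741 symbols were updated by gene identifier. Each of 18193 genes was read by its probe set with the highest mean signal. Signals were floored at 100, and the fold rule asked for a 2-fold difference and 300 in the brighter array. The text names the 6 genes, up to 4 genes of each pathway list and comparison with the largest ratios past the rule, key genes fixed for each list, the 3 genes most like each of the 6, checks of gate and lineage, and markers of other cells. Kynu, Ppa1, Hsd17b11, Gpd1l, Gpam, the sex-linked transcripts and the genomic neighbours were named after their values were seen. The 6 genes and the lists were chosen with earlier results of these data known. Of 148 entries in 6 pathway lists, 137 were named on the array. Promoter sequences are from RefSeq (GRCm38.p6) and were matched for 4 of the 6 genes; motifs were searched on both strands.

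With 1 array a group no test was run, and precision is limited by the number of arrays. The ratio script was tested on simulated data. Alternatives covered the scaling, the floor, the fold and signal limits and the choice of probe set. Python 3.11.15, numpy 2.4.6, pandas 2.3.3 and matplotlib 3.10.9 were used.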

Additional observations from a re-analysis of the deposited data

How the results depend on the processing

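With 6 genes and 4 comparisons, 18 of 24 ratios passed the fold rule, and 12 of these passed in the same direction under all 10 alternatives; no ratio of the 6 genes reversed under any of them. With a fold limit of 3, 0 of the 6 genes passed in Th1 CD30high over Th1 CD30low cells, against 3 with the limit of 2. Median scaling moved the median log2 ratio of the genes that reached 300 by 0.44 for Th17 over Th1 CD30high cells, by 0.25 for Th17 over Th1 CD30low cells and by -0.24 for Th1 CD30high over Th1 CD30low cells. In that last comparison it took Xdh just past the 2-fold limit and Gatm to a log2 ratio of 0.93, under it. The higher share of all calls then was 17.5% in place of 62%, for Th17 over Th1 CD30high cells 79.7% in place of 42.1%, and for Th17 over Th1 CD30low cells 64.9% in place of 37.7%. In Th17 CD30high over Th17 CD30low cells Aqp9 lost its call by its second probe set, where both signals lay below 100. It also lost it by the mean of both probe sets (log2 ratio -1.25), since the brighter signal was then 237, under the limit of 300.

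Over all genes, a fold limit of 1.5 passed 1451, 595, 2269 and 1964 genes and a limit of 3 passed 255, 16, 415 and 284, for the 2 CD30 comparisons (Th17, then Th1 cells) and the 2 lineage comparisons (CD30high, then CD30low cells), against 592, 100, 944 and 735 with a limit of 2. Averaging probe sets passed 392, 61, 630 and 501 genes. With a signal limit of 200, 171 genes passed in Th1 CD30high over Th1 CD30low cells, and median scaling passed 1417 in Th17 over Th1 CD30high cells. Signals under 100 limit what can be read of Xdh and Aqp9 in Th17 CD30high cells and of Ido1 in Th1 CD30low cells, where a fold is a lower bound. No paired analysis was possible because each group had 1 array and no label pairs arrays.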

Other observations

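Genes next to the 6 on the chromosome were read in the same way, as values only. AA467197, a neighbour of Gatm, had signals of 2045 in Th17 CD30high and 11361 in Th17 CD30low cells, against 15602 in Th1 CD30high and 19435 in Th1 CD30low cells. Slc30a4, a zinc transporter gene also beside Gatm, had 1385 in Th17 CD30high and 4985 in Th17 CD30low cells, against 2835 in Th1 CD30high and 4036 in Th1 CD30low cells. Both neighbours thus ran opposite to Gatm between the CD30 gates of Th17 cells. Beside Ank, Otulinl had 678 in Th17 CD30high and 1783 in Th17 CD30low cells, against 2470 in Th1 CD30high and 3783 in Th1 CD30low cells, the same order of arrays as Ank. Beside Xdh, Ehd3 had 195 in Th17 CD30high and 360 in Th17 CD30low cells, against 486 in Th1 CD30high and 901 in Th1 CD30low cells, again the order of its neighbour. Other neighbours of Xdh did not share that order. Memo1 had 2321 in Th17 CD30high and 2035 in Th17 CD30low cells, against 2345 in Th1 CD30high and 1878 in Th1 CD30low cells. Memo1 and Dpy30, also near Xdh, passed the fold rule in no comparison, and neither did any neighbour of Aqp9 read on the array.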
